A study of Homo sapiens with 12 samples.

Results

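The genes described are 10 early response genes, most of them for transcription factors that cells switch on soon after a stimulus: FOS, FOSB, FOSL1, FOSL2, JUN, JUNB, ATF3, EGR1, EGR3 and IER2. They were chosen by name, from the symbol that each gene identifier carries, and all 10 were found among 62710 genes. Their levels were read in human hepatocellular carcinoma cells, bulk RNA of the established lines PLC/PRF/5, HLF and SNU475. Each line was kept for 24 h in 20 mM lactate, supplied as lactic acid, or left as the untreated control, with 2 libraries of each kind and 12 in all. No knockout, transgene or other agent is named for any group, and the labels give neither a vehicle nor a pH adjustment for the controls. Separate cultures are not mentioned for the libraries within a group, and p-values below therefore reflect spread among the sequenced libraries that could be purely technical. The study's title concerns glycolysis and lactylation of a histone H4 lysine, and the comparison asks how these genes differ with lactate in each line. The untreated lines were also compared with each other.

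AP-1 is a dimer that binds short DNA sites near genes for growth, invasion, stress and inflammation. A JUN protein (JUN, JUNB, JUND) pairs with a FOS protein (FOS, FOSB, FOSL1, FOSL2) or with a relative such as ATF3. EGR1 and EGR3 are zinc finger factors that bind GC-rich sites. FOS, EGR1 and IER2 are classic immediate early genes, induced briefly through kinase cascades and the serum response factor SRF, whereas FOSL1 and FOSL2 come later, last longer and are high in many invasive tumours. In the liver, AP-1 and EGR1 take part in regeneration and in the response to injury.

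Start regions are shown for 4 genes because EGR1 and FOS had, with ATF3, the largest positive mean lactate effects and because FOSL2 and JUN, with FOSL1, differed most clearly between the lines. Windows of 250 bases before to 50 bases after the gene start come from RefSeq, build GRCh38.p14, with a window for 8 of the 10 genes. Each sequence is written 5′ to 3′ on the gene's own strand. Capitals mark the CArG box bound by SRF, the TGACG core of a cyclic AMP response element, the AP-1 site TGACTCA or TGAGTCA, and the TGACATCA site known from JUN, each searched on both strands (TGACG reads CGTCA on the other strand).
EGR1, chr5:138465229-138465528, plus strand: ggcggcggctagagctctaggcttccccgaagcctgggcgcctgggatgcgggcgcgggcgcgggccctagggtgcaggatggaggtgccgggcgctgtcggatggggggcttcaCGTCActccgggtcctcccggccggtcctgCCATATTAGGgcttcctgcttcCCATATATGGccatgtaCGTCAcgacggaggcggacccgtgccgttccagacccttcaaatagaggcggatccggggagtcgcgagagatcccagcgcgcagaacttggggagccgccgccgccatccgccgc
FOS, chr14:75278578-75278877, plus strand: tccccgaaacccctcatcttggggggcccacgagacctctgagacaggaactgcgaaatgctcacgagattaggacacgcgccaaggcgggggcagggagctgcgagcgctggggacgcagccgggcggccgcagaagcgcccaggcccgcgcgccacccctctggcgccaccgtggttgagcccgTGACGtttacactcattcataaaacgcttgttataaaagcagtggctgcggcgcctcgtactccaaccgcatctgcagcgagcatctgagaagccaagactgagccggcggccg
FOSL2, chr2:28392608-28392907, plus strand: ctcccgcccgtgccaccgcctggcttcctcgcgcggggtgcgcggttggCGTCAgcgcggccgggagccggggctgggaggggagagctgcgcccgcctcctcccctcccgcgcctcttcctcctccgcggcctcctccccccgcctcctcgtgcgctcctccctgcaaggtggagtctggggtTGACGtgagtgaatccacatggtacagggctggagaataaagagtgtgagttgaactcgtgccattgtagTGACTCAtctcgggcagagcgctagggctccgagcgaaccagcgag
JUN, chr1:58783998-58784297, minus strand: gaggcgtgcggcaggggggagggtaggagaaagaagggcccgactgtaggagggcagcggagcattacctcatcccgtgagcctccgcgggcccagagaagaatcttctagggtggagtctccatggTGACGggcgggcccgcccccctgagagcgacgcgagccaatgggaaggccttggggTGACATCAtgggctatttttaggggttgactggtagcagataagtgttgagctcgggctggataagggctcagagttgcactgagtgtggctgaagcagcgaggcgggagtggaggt
EGR1 was the only member whose window held a CArG box, and it held 2 of them, from 105 to 96 and from 83 to 74 bases before the start. A CArG box occurred in 1.29% of all 35116 RefSeq windows of this length. The TGACG core was present in 7 of the 8 genes with a window, against 24.6% of all windows. The AP-1 site was present in FOSL2 alone, at bases 5 to 11 after the start, against 4.95% of all windows. TGACATCA was present in JUN and ATF3, against 2.61% of all windows. The full element TGACGTCA, found in 1.85% of all windows, occurred in none of the 8. These are matches of letters and not measured binding, and the known serum response element of FOS lies upstream of the window shown. Of the other members, FOSL1 lies at chr11:65892049-65900573 on the minus strand, ATF3 at chr1:212565334-212620777 on the plus strand, and FOSB (chr19:45467995-45475179), JUNB (chr19:12791496-12793315) and IER2 (chr19:13150415-13154908) on the plus strand of chromosome 19, in GENCODE v29 on GRCh38.

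Libraries held 16533437 to 22187849 expected counts, a depth at which 3 counts correspond to 0.116 to 0.203 CPM (counts brought to a common library size after scaling by the TMM method, the normalised counts below). Replicates correlated across genes at 0.988 in both PLC/PRF/5 groups, at 0.986 and 0.981 in the HLF groups, and at 0.95 and 0.966 in lactate and control SNU475. The SNU475 libraries numbered 2 stood apart from those numbered 1, with mitochondrially encoded transcripts at 13.9% in lactate and 15.1% in control, against 8.5% and 8% in the libraries numbered 1. Each member's lactate result in SNU475 is therefore also given without that pair. The HLF controls were unlike too, with such transcripts at 9.52% in number 1 and 3.39% in number 2. The median fitted log2 lactate change in HLF was 0.03 over the 9 members of the main fit. Over 10 members it was 0.18 without HLF control 1 and -0.17 without HLF control 2. The label of hepatocellular carcinoma cells could be checked only partly. Summed levels of 7 hepatocyte markers were 2201 to 5423 TPM (the deposited level per transcript length and depth) in PLC/PRF/5 and 4.11 to 6.79 TPM in HLF and SNU475, where 3 to 5 of the 7, depending on the group, had no count in either library. In untreated PLC/PRF/5 most of this sum was AFP, at 1758 to 3101 TPM, while ALB was 19.61 to 63.25 TPM. Summed levels of 6 mesenchymal markers were 286 to 508 TPM in PLC/PRF/5 and 4308 to 4780 TPM in HLF and SNU475, mostly VIM. Summed levels of 5 epithelial markers were 3319 to 7109 TPM over all lines, nearly all KRT8 and KRT18, and this sum did not separate the lines. CDH1 did, at 40.4 to 45.6 TPM in untreated PLC/PRF/5, against at most 0.15 TPM in HLF and 1.69 TPM in SNU475. KRT19 was at most 0.09 TPM in untreated HLF, 38.5 to 102 TPM in SNU475 and 87.7 to 96.2 TPM in PLC/PRF/5. EPCAM was at most 0.74 TPM in any untreated line. Leukocyte markers summed to 24.9 to 161 TPM, nearly all of it CD68, and endothelial markers to at most 4.79 TPM. In bulk RNA, fewer cells expressing a gene and less RNA per cell cannot be told apart.

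No member passed the test for lactate in any line. EGR1 had fitted folds of 2.18, 2.41 and 2.16 for lactate over control in PLC/PRF/5, HLF and SNU475. In SNU475 every member that was tested had a positive fitted change, led by ATF3 and FOS. FOSB, FOSL1, JUN and IER2 had negative fitted changes in both PLC/PRF/5 and HLF. Of the 10 genes, 9 had enough counts for the test and EGR3 did not. By edgeR's quasi-likelihood test adjusted over 18355 genes, 0 of the 9 were called in PLC/PRF/5, in HLF and in SNU475, where 0% of all tested genes were called as well. For the mean of the 3 line effects 0 of 9 were called against 0.42% of all genes, and for the interaction of lactate with line 0 of 9 against 0%. An unadjusted p under 0.05 was reached by 0 of 9 in PLC/PRF/5 (5.92% of all genes), by 0 of 9 in HLF (6.28%), by 4 of 9 in SNU475 (11.6%), by 3 of 9 for the mean effect (15.8%) and by 1 of 9 for the interaction (3.51%). In SNU475 the 4 of 9 became 1 of 9 with the line fitted alone and 6 of 9 with the replicate number as a block. No share of all genes is given for those 2 counts. The median change of the 9 in SNU475 was 0.71, and 0.21 without both libraries numbered 2. DESeq2 called 1 member in SNU475, ATF3, against 1.85% of all genes, and 1 for the mean effect, EGR1, against 5.97%. It called no member in PLC/PRF/5, in HLF or for the interaction, against 0.601%, 0.265% and 0.051% of all genes. With the replicate number as a block, 1 member was called for the mean effect, again EGR1 (6.91% of all genes), and 0 in PLC/PRF/5 (0.659%), in HLF (0.0163%), in SNU475 (0.251%) and for the interaction (0.0327%).

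**Figure D1:**
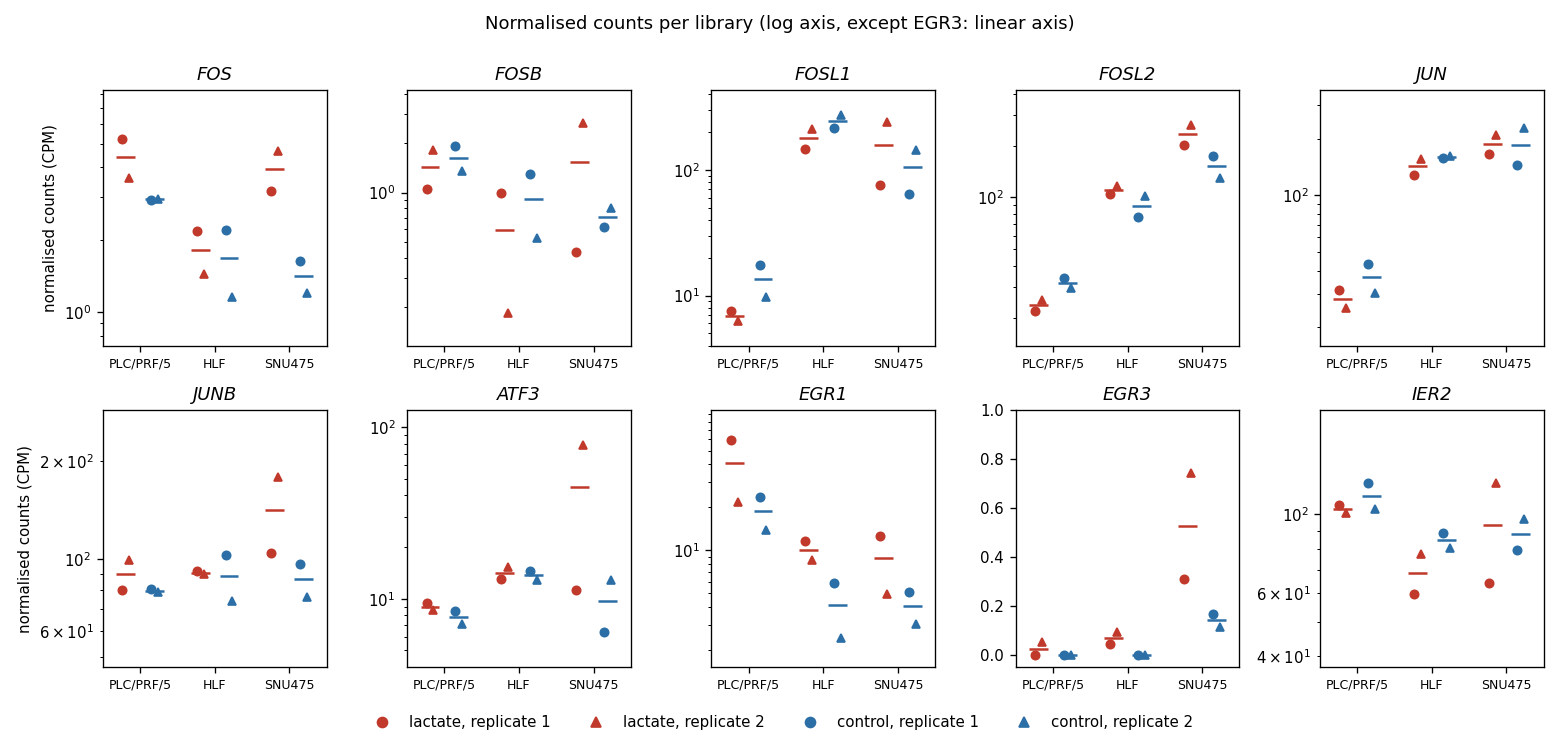
Normalised counts (CPM) of the 10 genes in each of the 12 libraries, lactate in red and control in blue, circles for replicate 1 and triangles for replicate 2, short bars for group means, on log axes except for EGR3. EGR1 lactate means lie above control means in every line, the SNU475 lactate library numbered 2 stands at 78.1 CPM for ATF3, and FOSL1, FOSL2 and JUN are lowest in PLC/PRF/5.

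EGR1 encodes the zinc finger factor that is the usual marker of an immediate early response. Its normalised counts were 59.9 and 21.9 CPM in lactate PLC/PRF/5 libraries, against 23.7 and 13.9 CPM in control ones. In HLF they were 11.5 and 8.49 CPM in lactate libraries and 5.86 and 2.42 CPM in control libraries. In SNU475 they were 12.6 and 4.95 CPM in lactate libraries and 5.06 and 3.05 CPM in control libraries. The groups did not overlap in HLF, while in PLC/PRF/5 and SNU475 the lower lactate library lay just under the higher control library. The fitted log2 changes were 1.12 ± 0.56 in PLC/PRF/5, 1.27 ± 0.59 in HLF and 1.11 ± 0.60 in SNU475 (standard errors). Their adjusted p-values were 0.863, 0.788 and 0.501, and the last change was 1.30 ± 0.92 with the libraries numbered 2 of SNU475 left out. The mean effect over the lines was 1.17 ± 0.34, a 2.25-fold higher level with unadjusted p = 0.00503 and adjusted p = 0.128 by edgeR. Within libraries of the same number the difference was positive in 6 of 6 pairs, from 0.65 to 1.77 on the log2 scale. With the replicate number as a block the mean effect was 1.13 and passed, with adjusted p = 0.00463. Leaving out both SNU475 libraries numbered 2, it was 1.23 with adjusted p = 0.207. DESeq2 gave adjusted p = 0.0221, and over all 18 alternatives the adjusted p ran from 4.82e-06 to 0.369 and passed in 3. The test of a difference between lines gave unadjusted p = 0.978, which does not show that the lines responded alike. Of the 8 members averaging 2 CPM or more 1, EGR1, had positive differences in all 6 pairs, beside 8.5% of the 13427 genes at such levels.

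EGR3, a relative of EGR1, was close to undetected. Its expected counts were 0 and 1 in lactate PLC/PRF/5 libraries and 0 and 0 in control ones, 1 and 2 in lactate HLF libraries and 0 and 0 in control ones, and 5 and 11 in lactate SNU475 libraries and 3 and 2 in control ones. The 25 counts lie mostly in SNU475, and lactate libraries held 20 of them. A count of 0 allows a level of up to 3 counts per library, and only the SNU475 lactate libraries lay above that limit. No fold or test is given for EGR3.

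ATF3, a stress-induced partner of JUN proteins that often represses, had the largest fitted lactate change of the 9 tested genes, in SNU475. In SNU475 it stood at 11.3 and 78.1 CPM in lactate libraries and at 6.41 and 12.9 CPM in control libraries. The groups overlapped in CPM but not in TPM, and the lactate library numbered 2 stood alone, with 1152 expected counts against 181 in the lactate library numbered 1. The fitted log2 change was 2.21 ± 0.65 in SNU475, with unadjusted p = 0.00574 and adjusted p = 0.282. Without the SNU475 lactate library numbered 2 it was 0.22, and without the one numbered 1 it was 3.02. With both SNU475 libraries numbered 2 left out it was 0.80 ± 0.32. The size of the value in SNU475 therefore rests on 1 library. In PLC/PRF/5, ATF3 stood at 9.45 and 8.56 CPM in lactate libraries and 8.51 and 7.17 CPM in control libraries, groups that did not overlap by a narrow margin and that did overlap in TPM. In HLF it stood at 12.97 and 15.4 CPM in lactate libraries and 14.6 and 12.9 CPM in control libraries. The fitted changes there were 0.20 ± 0.64 and 0.05 ± 0.63, far inside their errors, and the interaction test gave unadjusted p = 0.0616 and adjusted p = 1. The mean effect was 0.82 ± 0.37 with adjusted p = 0.306.

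FOS, the short-lived founder of its family, was measured at low counts, from 21 to 135 per library. In PLC/PRF/5 it stood at 5.23 and 3.59 CPM in lactate libraries, against 2.93 and 2.94 CPM in control libraries. In HLF it stood at 2.18 and 1.44 CPM in lactate libraries and 2.19 and 1.16 CPM in control libraries. In SNU475 it stood at 3.17 and 4.68 CPM in lactate libraries and 1.63 and 1.21 CPM in control libraries. Lactate libraries lay above controls in PLC/PRF/5 and SNU475, and the groups overlapped in HLF. The log2 changes were 0.59 ± 0.46, 0.11 ± 0.47 and 1.46 ± 0.48 in PLC/PRF/5, HLF and SNU475, with adjusted p-values of 0.960, 1 and 0.305. The value in SNU475 was 0.95 ± 0.59 without both libraries numbered 2. The mean effect was 0.72 ± 0.27, with unadjusted p = 0.0219 and adjusted p = 0.226.

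FOSB, a close relative of FOS, had 4 to 39 expected counts per library. It stood at 1.05 and 1.82 CPM in lactate and 1.92 and 1.34 CPM in control PLC/PRF/5 libraries, at 0.998 and 0.186 CPM in lactate and 1.29 and 0.527 CPM in control HLF libraries, and at 0.435 and 2.64 CPM in lactate and 0.619 and 0.805 CPM in control SNU475 libraries. The groups overlapped in CPM in all 3 lines, and in TPM the lactate libraries lay below controls in HLF. The log2 changes were -0.19 ± 0.86, -0.62 ± 0.91 and 1.10 ± 0.91 in PLC/PRF/5, HLF and SNU475, the last -0.51 ± 1.13 when both SNU475 libraries numbered 2 were left out. The effective transcript length behind its counts varied 5.35-fold between libraries, so its TPM and CPM values rank the libraries differently. FOSB also overlaps ERCC1 on the other strand, and whether the counting used strand is not given in the sources used here.

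FOSL1, the FOS family member most tied to invasive growth, had negative changes with lactate in PLC/PRF/5 and HLF and a positive one in SNU475. It stood at 7.47 and 6.33 CPM in lactate PLC/PRF/5 libraries, against 17.5 and 9.65 CPM in control ones. In HLF it stood at 148 and 211 CPM in lactate libraries, against 217 and 272 CPM in control libraries. In SNU475 it stood at 76.5 and 241 CPM in lactate libraries and 64.2 and 145 CPM in control libraries. Lactate libraries lay below controls in PLC/PRF/5 and HLF (in TPM the HLF groups overlapped), while in SNU475 the libraries numbered 2 were the higher of each group and the groups overlapped. The log2 changes were -0.97 ± 0.52, -0.45 ± 0.49 and 0.60 ± 0.49, with adjusted p-values of 0.896, 0.936 and 0.687. Without the filter on low counts the change in PLC/PRF/5 passed with adjusted p = 0.0363, and in the other 18 alternatives it did not. The interaction test gave unadjusted p = 0.125 (0.000668 with the replicate block, adjusted p = 0.246), and the change in SNU475 was 0.24 when both libraries numbered 2 were left out.

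FOSL2, a later and longer-lived FOS relative, had fitted changes of opposite sign in different lines. It stood at 21.9 and 25.5 CPM in lactate PLC/PRF/5 libraries, against 34.2 and 29.7 CPM in control ones. In HLF it stood at 105 and 116 CPM in lactate libraries and 77.3 and 102 CPM in control libraries. In SNU475 it stood at 201 and 265 CPM in lactate libraries and 173 and 130 CPM in control libraries. The lactate libraries lay wholly below the controls in PLC/PRF/5 and wholly above them in HLF and SNU475. The log2 changes were -0.43 ± 0.22, 0.30 ± 0.22 and 0.62 ± 0.22, with adjusted p-values of 0.877, 0.882 and 0.312. The interaction test gave unadjusted p = 0.0168 and adjusted p = 1. The change in SNU475 was 0.21 ± 0.25 without both libraries numbered 2. FOSL2 also overlaps 2 non-coding genes, 1 on each strand.

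JUN, the central AP-1 subunit, had small fitted changes. It stood at 31.4 and 25.5 CPM in lactate and 43.6 and 30.5 CPM in control PLC/PRF/5 libraries, at 128 and 157 CPM in lactate and 159 and 161 CPM in control HLF libraries, and at 165 and 209 CPM in lactate and 144 and 227 CPM in control SNU475 libraries. Lactate libraries lay below controls in HLF and the groups overlapped in the other lines. On the deposited TPM scale the HLF groups overlapped too, at 64.95 and 77.2 TPM in lactate libraries and 58.6 and 79.6 TPM in control libraries. Fitted log2 changes were -0.38 ± 0.26, -0.17 ± 0.25 and 0.01 ± 0.25, with adjusted p-values of 0.957 or more, and the last was 0.19 without both libraries numbered 2.

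JUNB, a JUN relative that can restrain JUN, stood at 80.2 and 98.96 CPM in lactate and 80.7 and 78.9 CPM in control PLC/PRF/5 libraries. In HLF it stood at 91.5 and 89.7 CPM in lactate libraries and 103 and 74.4 CPM in control libraries. In SNU475 it stood at 105 and 179 CPM in lactate libraries and 96.6 and 76.5 CPM in control libraries. Lactate lay above control in SNU475 and the groups overlapped in the other lines. In TPM lactate lay above control in every line, with 80.2 and 93.7 TPM in lactate and 74.2 and 74.95 TPM in control PLC/PRF/5, 81.2 and 77.0 TPM in lactate and 67.5 and 64.95 TPM in control HLF, and 78.9 and 99.4 TPM in lactate and 69.3 and 43.9 TPM in control SNU475. Its log2 changes were 0.17 ± 0.26, 0.03 ± 0.26 and 0.71 ± 0.26, the last with unadjusted p = 0.0182 and adjusted p = 0.321. Without the SNU475 lactate library numbered 1 the change there was 1.05, and without the one numbered 2 it was 0.27. Without both SNU475 libraries numbered 2 it was 0.10. The size of the change in SNU475 therefore depends on which lactate library is kept. JUNB overlaps HOOK2 on the other strand.

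IER2, a small early response gene of less settled function, stood below its controls in HLF, at 59.6 and 77.5 CPM in lactate libraries against 88.7 and 80.7 CPM in control libraries. In PLC/PRF/5 it stood at 106 and 101 CPM in lactate libraries and 122 and 103 CPM in control libraries, and in SNU475 at 64.3 and 123 CPM in lactate libraries and 79.3 and 97.2 CPM in control libraries. The groups overlapped in both of these lines, and in TPM in HLF as well. The log2 changes were -0.12 ± 0.27, -0.30 ± 0.27 and 0.08 ± 0.27, with adjusted p-values of 1, 0.908 and 0.961, and the last was -0.31 without both SNU475 libraries numbered 2. IER2 was the only member with counts that were not whole, so some of its reads were shared with another gene or copy.

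**Figure D2:**
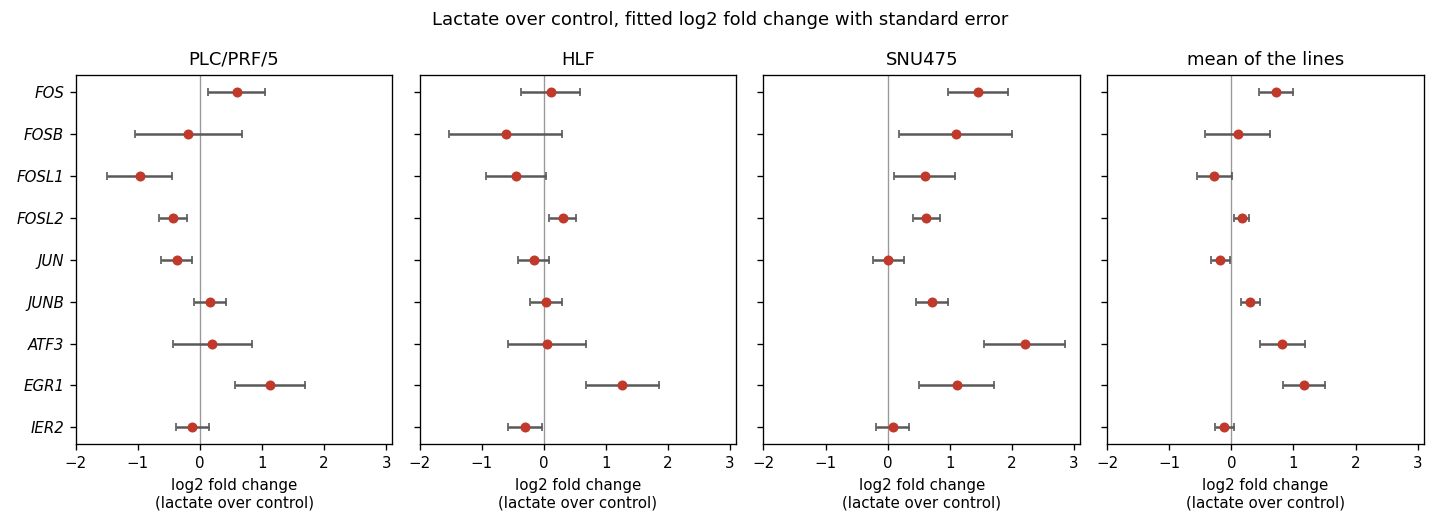
Fitted log2 fold changes of lactate over control for the 9 tested genes in each line and for the mean of the lines, with bars of 1 standard error. EGR1 is positive in every panel (1.12, 1.27 and 1.11 in PLC/PRF/5, HLF and SNU475), ATF3 reaches 2.21 in SNU475, and FOSL2 is negative in PLC/PRF/5 (-0.43) and positive in HLF and SNU475.

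By direction, 4 of the 9 tested members had a positive fitted change in PLC/PRF/5, where 52.8% of all genes did, 5 of 9 in HLF (48% of all genes), 9 of 9 in SNU475 (51%) and 6 of 9 for the mean effect (54.2%). The median change of the 9 in SNU475 was 0.71, beside 0.01 for all genes. It was 0.21 without both libraries numbered 2, with 7 positive and 2 negative members. Groups did not overlap in CPM for 4 of the 9 in PLC/PRF/5 (50.3% of all genes), of which FOS and ATF3 were higher (28.5%) and FOSL1 and FOSL2 lower (21.8%). They did not overlap for 5 of 9 in HLF (39.6% of all genes), with FOSL2 and EGR1 higher (19.6%) and FOSL1, JUN and IER2 lower (19.9%). In SNU475 they did not overlap for 3 of 9 (31.6% of all genes), with FOS, FOSL2 and JUNB higher (16.2%) and none lower (15.4%). No member lay above its controls in every line (2.72% of all genes) or below them in every line (3.37%). On the deposited TPM, groups did not overlap for 4 of 9 in PLC/PRF/5 (45.7% of all genes), 4 of 9 in HLF (33.9%) and 4 of 9 in SNU475 (28.1%), and JUNB lay above its controls in every line (2.87% of all genes). No test is given for these counts.

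**Figure D3:**
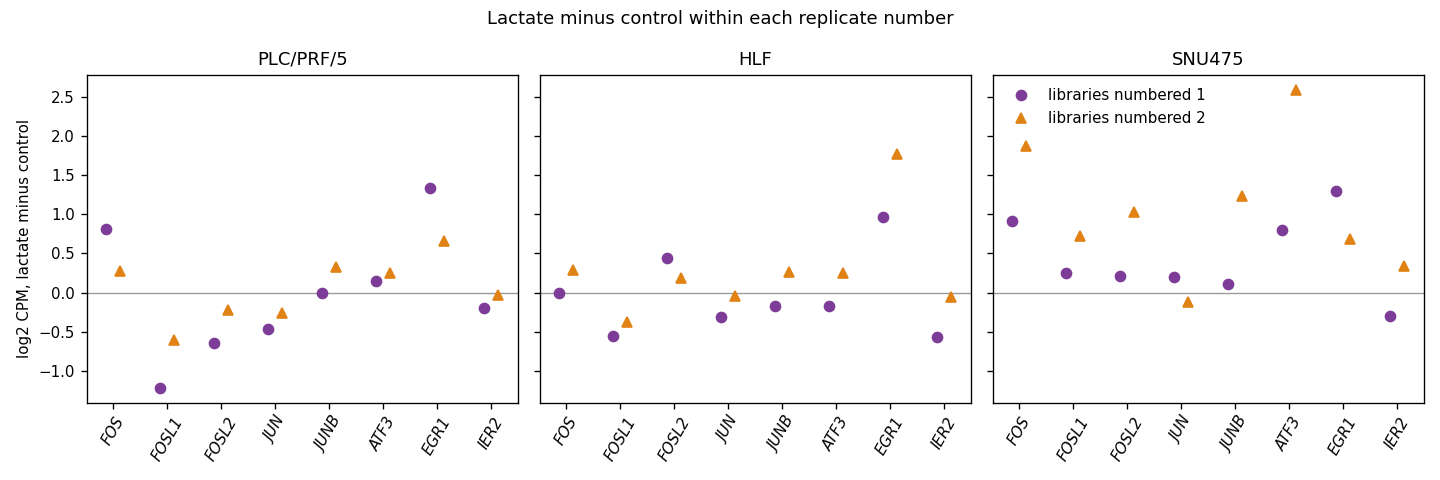
Difference in log2 CPM, lactate minus control, within libraries of the same replicate number, circles for number 1 and triangles for number 2, for the 8 genes other than FOSB and EGR3. EGR1 lies above 0 in all 6 pairs, from 0.65 to 1.77, and in SNU475 the pair numbered 2 lies above the pair numbered 1 for FOS, FOSL1, FOSL2, JUNB, ATF3 and IER2.

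Between untreated lines the late FOS genes and JUN were low in PLC/PRF/5 and EGR1 was high there. Set against HLF, 4 of the 9 tested members were called in PLC/PRF/5, where 43% of all genes were called, and set against SNU475 4 of 9, where 48.7% were. The same genes were called both times: FOSL1, FOSL2 and JUN lower and EGR1 higher in PLC/PRF/5. Between HLF and SNU475 1 of 9 was called, FOSL2, against 39% of all genes. These shares lie near or below those of all genes, so they say nothing particular of the members. Both comparisons of PLC/PRF/5 use the same 2 PLC/PRF/5 libraries.

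FOSL1 had the widest range of the 10 genes. Its length-scaled level was 19.2 and 11.1 TPM in untreated PLC/PRF/5, 169 and 279 TPM in untreated HLF and 54.9 and 96.3 TPM in untreated SNU475. The 3 lines did not overlap. PLC/PRF/5 lay 18.1-fold below HLF, a log2 difference of -4.18 ± 0.56 with adjusted p = 1.20e-04 by edgeR, and 7.74-fold below SNU475, a difference of -2.95 ± 0.54 with adjusted p = 9.15e-04. Both were called in all 17 alternatives. The difference from SNU475 was -2.24 without the SNU475 control numbered 2, -3.42 without the one numbered 1, and -3.43 and -2.58 without the PLC/PRF/5 control numbered 1 or 2. HLF lay above SNU475 by 1.22 ± 0.50 with adjusted p = 0.0714, a difference that passed in 5 of 17 alternatives, among them the fit without both SNU475 libraries numbered 2 (1.89, adjusted p = 9.18e-04).

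FOSL2 stood at 7.63 and 6.89 TPM in untreated PLC/PRF/5, 13.9 and 22.9 TPM in HLF and 30.4 and 18.5 TPM in SNU475. PLC/PRF/5 was the lowest line, while HLF and SNU475 overlapped in TPM. The log2 difference of PLC/PRF/5 from HLF was -1.49 ± 0.22 (adjusted p = 2.79e-04) and that from SNU475 -2.24 ± 0.23 (adjusted p = 1.49e-05), both called in all 17 alternatives. HLF lay below SNU475 by -0.76 ± 0.22 with adjusted p = 0.0179. That call was lost without the HLF control numbered 1 (-0.60, adjusted p = 0.111), without the SNU475 control numbered 1 (-0.53, adjusted p = 0.135) and with effective lengths as an offset.

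JUN stood at 22.3 and 16.0 TPM in untreated PLC/PRF/5, 58.6 and 79.6 TPM in HLF and 59.9 and 72.0 TPM in SNU475. It was lower in PLC/PRF/5, by -2.11 ± 0.26 against HLF (adjusted p = 7.11e-05) and by -2.33 ± 0.27 against SNU475 (adjusted p = 3.49e-05), in all 17 alternatives. HLF and SNU475 differed by -0.22 ± 0.25, within the error.

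EGR1 ran the other way, with 11.9 and 7.20 TPM in untreated PLC/PRF/5, 2.10 and 1.16 TPM in HLF and 1.99 and 0.96 TPM in SNU475. It was 4.52-fold higher in PLC/PRF/5 than in HLF, a log2 difference of 2.18 ± 0.60 with adjusted p = 0.0122, and 4.63-fold higher than in SNU475, a difference of 2.21 ± 0.60 with adjusted p = 0.0105. Both calls were lost without the PLC/PRF/5 control numbered 1 (1.74, adjusted p = 0.0850, and 1.78, adjusted p = 0.0712). The first was also lost without the HLF control numbered 2 (1.68, adjusted p = 0.102), and was 2.99 without the HLF control numbered 1. The second was also lost without the SNU475 control numbered 2 (1.90, adjusted p = 0.0716) and without both SNU475 libraries numbered 2 (1.90, adjusted p = 0.109).

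The other members differed less between untreated lines. FOS averaged 2.76 ± 0.35 TPM in PLC/PRF/5, 1.31 ± 0.13 TPM in HLF and 0.82 ± 0.25 TPM in SNU475 (SD, n = 2 each), and FOSB 0.97 ± 0.06, 0.55 ± 0.01 and 0.23 ± 0.02 TPM in the same order. Their neighbours in this order did not overlap in TPM, yet none of the differences passed the test on counts. In CPM both genes overlapped between untreated HLF and SNU475. The untreated HLF libraries held 26 and 10 counts of FOSB, at effective lengths of 2481 and 1287 bases. They held 44 and 22 counts of FOS, at effective lengths of 1846 and 1141 bases. With effective lengths as an offset, FOS was called in PLC/PRF/5 against SNU475. JUNB averaged 74.6 ± 0.6, 66.2 ± 1.8 and 56.6 ± 18.0 TPM in PLC/PRF/5, HLF and SNU475, an order within the spread of SNU475. IER2 averaged 84.9 ± 9.5, 54.0 ± 6.8 and 46.8 ± 0.4 TPM, and ATF3 8.38 ± 2.74, 11.8 ± 3.7 and 5.66 ± 1.91 TPM. Over the 17 alternatives the log2 difference of PLC/PRF/5 from HLF ran from -0.93 to -0.68 for ATF3 and from 0.29 to 0.53 for IER2. That of HLF from SNU475 ran from 0.09 to 1.08 for ATF3. In these comparisons both genes were called only in fits that kept a single SNU475 lactate library, so those calls are not counted here. EGR3 was listed at 0 in untreated PLC/PRF/5 and HLF and at 0.04 and 0.11 TPM in SNU475.

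**Figure D4:**
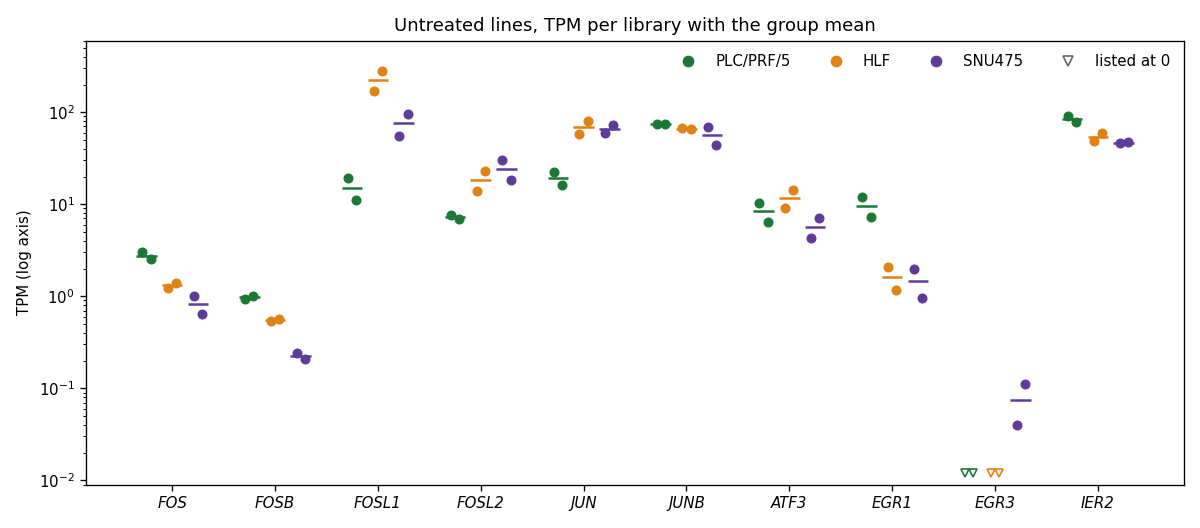
TPM (log axis) of the 10 genes in the 2 untreated libraries of each line, with short bars for the mean and open triangles where a gene is listed at 0 in a line. PLC/PRF/5 is lowest for FOSL1, FOSL2 and JUN and highest for FOS, FOSB, EGR1 and IER2.

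The same values show how the AP-1 families were made up in each line. Summed over FOS, FOSB, FOSL1 and FOSL2, the FOS family held 17.5 to 20.1 TPM in lactate and 21.6 to 30.8 TPM in control PLC/PRF/5. It held 179 to 238 TPM in lactate and 185 to 304 TPM in control HLF, and 108 to 203 TPM in lactate and 86.5 to 116 TPM in control SNU475. FOSL1 made up 41.8 to 62.4% of it in PLC/PRF/5, 85.5 to 91.8% in HLF and 61.8 to 83.3% in SNU475 libraries. FOS made up 9.75 to 24.4% in PLC/PRF/5 and at most 0.98% in HLF and 2.18% in SNU475. In PLC/PRF/5 the share of FOS was 24.4 and 17.5% in lactate libraries and 9.75 and 11.6% in control libraries, which did not overlap. The JUN family, counted with JUND, was of similar size in all lines, 169 to 290 TPM. JUN itself made up 6.02 to 10.5% of it in PLC/PRF/5, 26.2 to 34.2% in HLF and 27.1 to 42.6% in SNU475, and JUND was the largest part in PLC/PRF/5, at 51.5 to 56.0%, and in HLF, at 37.9 to 46.8%. Shares within a family move together, so they show unequal levels and not a change of any single gene.

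**Figure D5:**
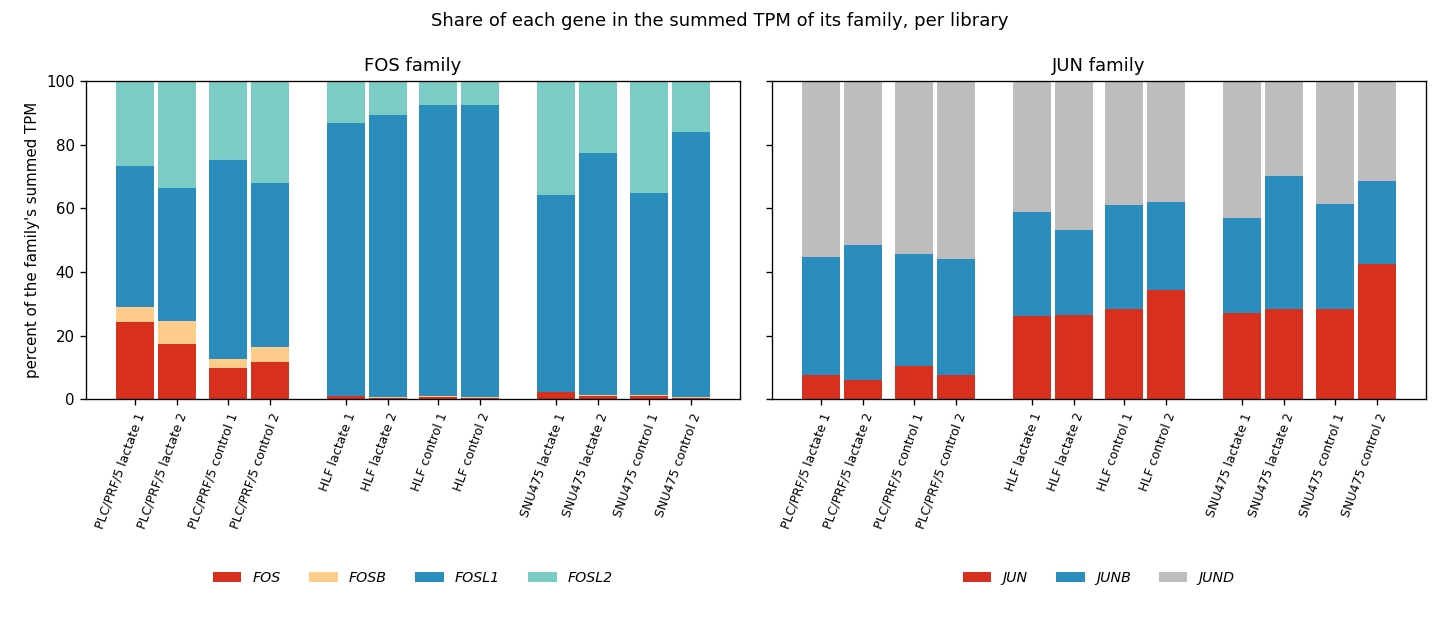
Share of each gene in the summed TPM of the FOS family (left) and the JUN family (right), 1 bar per library, lactate before control in each line. FOSL1 fills 85.5 to 91.8% of the FOS family in HLF, and JUN 6.02 to 10.5% of the JUN family in PLC/PRF/5.

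Other genes of the pathway were read from the main fit, in which no listed gene passed the test for lactate in any line or on average. Of 10 other AP-1 partners 9 were tested, and 8 of these were positive on average (median 0.20, beside 0.03 for all genes). The smallest p-values belonged to MAFG (-0.23 ± 0.12, adjusted p = 0.366), MAFF (0.40 ± 0.23, adjusted p = 0.428), both small MAF factors, and ATF7 (0.20 ± 0.14, adjusted p = 0.523). Among 21 other immediate early genes 17 were positive on average (median 0.27), where 54.2% of all genes were. By line, 19 were positive in SNU475 (median 0.79), 14 in HLF (median 0.05) and 9 in PLC/PRF/5 (median -0.14). Of all genes 51%, 48% and 52.8% were positive in these lines. Without both SNU475 libraries numbered 2 the positive genes were 11 of 20 on average (median 0.09) and 15 of 20 in SNU475 (median 0.31). The nuclear receptor gene NR4A1 had a mean effect of 1.49 ± 0.35 (adjusted p = 0.0841), the stress gene GADD45B one of 0.80 ± 0.23 (adjusted p = 0.128) and ZFP36, which speeds decay of early transcripts, one of 0.57 ± 0.17 (adjusted p = 0.143). NR4A1 stood at 3.20 and 12.3 TPM in lactate SNU475 and 0.82 and 1.09 TPM in control SNU475, so there too the library numbered 2 was the higher. Leaving out the SNU475 libraries numbered 2 keeps a single library in each SNU475 group. For the listed genes, unlike the members, only effect sizes are therefore given from that fit. For 5 listed genes, picked by their results in that fit, they were as follows. The mean effects were 0.98 for NR4A1, 0.55 for GADD45B and -0.56 for PPP1R15A. In PLC/PRF/5 the effects were 1.76 for BATF2 and -1.06 for SGK1.

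Of the regulators, SRF had a mean effect of -0.31 ± 0.11 (adjusted p = 0.197), and 2 of the 6 genes of SRF and its cofactors were positive. Its ETS partners ELK3 and ELK1 had 0.39 ± 0.20 (adjusted p = 0.389) and -0.18 ± 0.12 (adjusted p = 0.481). Of 12 upstream kinases 7 were positive, with a median of 0.05. RPS6KA1 (0.38 ± 0.11, adjusted p = 0.139) and MAPK3, which encodes ERK1 (0.39 ± 0.12, adjusted p = 0.144), were positive and RPS6KA4 (-0.42 ± 0.14, adjusted p = 0.174) was negative. Of the EGR corepressors, NAB1 had 0.21 ± 0.21 and NAB2 -0.05 ± 0.12 (adjusted p = 0.699 and 0.944). EGR2 was listed at 0 in HLF and at no more than 0.73 TPM elsewhere, too low for a fold, and EGR4 was not tested.

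Genes known as AP-1 targets were mostly negative with lactate in HLF (19 of 23, median -0.40 beside 0 for all genes) and mostly positive in SNU475 (17 of 23, median 0.37 beside 0.01, or 14 of 23 and 0.05 without both SNU475 libraries numbered 2). None was called. For the mean effect HMGA2, a chromatin protein gene, had -0.43 ± 0.15 (adjusted p = 0.185), PLAUR, the urokinase receptor gene, had 0.51 ± 0.20 (adjusted p = 0.238) and VEGFA had 0.53 ± 0.23 (adjusted p = 0.296). Between untreated lines many targets were called. In PLC/PRF/5 16 of 23 were lower than in HLF and 4 were higher, beside 21.3% of all genes lower and 21.7% higher. Among the 16 were the matrix proteases MMP1, MMP3, MMP9 and MMP10, urokinase (PLAU) and its receptor PLAUR, the adhesion receptor CD44, HMGA1, HMGA2, TIMP1, and the signal proteins HBEGF, LIF, IL6, IL11 and TGFB1. MMP9 and MMP10 were low in untreated HLF too, at most 0.77 and 0.48 TPM, where MMP1 stood at 2899 and 2137 TPM. CCND1, AREG, EREG and CXCL8 were the 4 that were higher. Against SNU475, 15 targets were lower and 3 higher in PLC/PRF/5, beside 26.3% and 22.4% of all genes. The median difference was -3.45 against HLF and -3.17 against SNU475, or -3.24 and -2.11 when the 3 genes with no count in a group are set to the limit that 3 counts give or left out where both groups have none. HLF lay above SNU475 for 12 and below for 3 of them, beside 17.2% and 21.9% of all genes. CD44, chosen after its values were seen, had 6.45 and 7.87 TPM in untreated PLC/PRF/5, 1023 and 937 TPM in HLF and 199 and 339 TPM in SNU475. The mesenchymal marker levels given above were also lower in PLC/PRF/5 than in HLF and SNU475, and their part in these differences was not tested.

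The genes most like each member across the 12 libraries were sought among 13427 genes that averaged 2 CPM or more, after the mean of each line was taken off. These likenesses are descriptions over libraries that share lines, depth and replicate numbers. Pearson's r with EGR1 was highest for FSTL3 (0.903) and CKAP4 (0.901), and with FOS for GTF2IRD1 (0.953) and KCTD13 (0.935). It was highest with FOSL1 for PPP2CB (0.972) and CORO1C (0.971), with FOSL2 for NUDCD3 (0.947) and CASZ1 (0.944), and with JUN for NUP205 and CSRP1 (both 0.933). For JUNB the closest were BHLHE40 (0.978) and VEGFA (0.967), for ATF3 LRRC38 (0.986) and CXCL14 (0.982), and for IER2 TBPL1 and TBCB (both 0.971). ATF3 stood at 78.1 CPM in the SNU475 lactate library numbered 2 and at most 15.4 CPM elsewhere. That library therefore weighs heavily in the likenesses of ATF3. Among the members themselves FOSL1 and JUN (0.891), FOSL1 and IER2 (0.838) and FOS and JUNB (0.812) were the most alike, and EGR1 and IER2 the least (-0.492).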

How the data were processed

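RNA of 3 hepatocellular carcinoma lines, with and without lactate, was profiled in 12 libraries. Expected counts, which need not be whole, and TPM were deposited per gene, per the file headers, with an effective length. Tools named by the submitters' processing notes are STAR, RSEM, FastQC and DESeq2, without versions. These notes give mouse builds (mm10, GRCm38), yet each of the 62757 row identifiers is human and was treated so. Which human build and annotation served is not stated in the sources used. Gene overlaps were read from GENCODE v29 (GRCh38).

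The 47 rows of Y copies were added to their X copies. Expected counts were rounded and filtered by edgeR's filterByExpr, leaving 18355 genes. In edgeR 4.0.16 under R 4.3.3, a robust quasi-likelihood model with TMM scaling was fitted to all 12 libraries as 6 groups, with 6 residual degrees of freedom, and p-values were adjusted by Benjamini-Hochberg over all genes and called at 0.05. CPM are on TMM-scaled sizes, with 3 counts as the detection limit, which covers counting error only. Errors beside fold changes are standard errors. DESeq2 1.42.0 was an alternative.

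In their departures from group level, the lactate and control library sharing a number correlated weakly in PLC/PRF/5 (0.132) and HLF (0.101). The correlation in SNU475 was 0.446. The main fit did not pair the libraries, so its p-values are unpaired. Pairing was used for the differences within libraries of the same number and for the alternative fit with a block for replicate number. The numbers come from the titles, and the PLC/PRF/5 libraries numbered 2 carry number 3 in the deposited names. The members and the gene lists were chosen with earlier results of these data known. Beyond the members, up to 3 genes of each list with the smallest p for the mean lactate effect, and the 2 genes most like each member, were named, and targets called between untreated lines. One such target is not reported here by name.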

Additional observations from a re-analysis of the deposited data

Results flagged for a closer look

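FOSL2 moved in opposite directions in different lines, with every lactate library on 1 side of every control library in each. Its log2 lactate effect was -0.43 in PLC/PRF/5, 0.30 in HLF and 0.62 in SNU475. The difference between the effects in HLF and PLC/PRF/5 was 0.737, and that between SNU475 and PLC/PRF/5 was 1.05. By edgeR's test of the difference over the 3 lines the unadjusted p was 0.0168 and the adjusted p 1, so the difference was not called. Among all tested genes, 9.69% (1778) showed such opposite movement in some pair of lines. Without both SNU475 libraries numbered 2 the effect in SNU475 was 0.21.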

How the results depend on the processing

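The lactate counts moved with the method, while FOSL1, FOSL2 and JUN stayed called lower in untreated PLC/PRF/5 in all 17 alternatives. Genes called for lactate in PLC/PRF/5, HLF, SNU475, on average and for the interaction (0, 0, 0, 77 and 0) numbered 188, 111, 414, 922 and 136 with no low-count filter, 121, 3, 46, 1268 and 6 with a replicate block, and 91, 42, 274, 947 and 9 by DESeq2. With each line fitted alone they numbered 569 in PLC/PRF/5 and 1 in HLF. Without both SNU475 libraries numbered 2 they numbered 138 in PLC/PRF/5, 39 in HLF and 530 on average, and with an effective-length offset, an alternative chosen after seeing the data, 1 in PLC/PRF/5 and 17 on average. Leaving out 1 library at a time, they ran from 0 to 19 in PLC/PRF/5, 0 to 1788 in SNU475, 0 to 1493 on average and 0 to 203 for the interaction, the 3 largest without the SNU475 lactate library numbered 1. With no filter all 10 members were tested, beside the numbers of all genes called given above for lactate. Of the 10, 1 member was called in PLC/PRF/5 (FOSL1), 1 in SNU475 (ATF3) and 2 on average (ATF3, EGR1). For the interaction 2 were called (FOSL1, ATF3). Between untreated HLF and SNU475 2 were called (FOSL1, FOSL2), beside 7509 of all genes. With a replicate block and by DESeq2 1 was called on average (EGR1), and by DESeq2 1 in SNU475 (ATF3). Between untreated HLF and SNU475 0 members were called with the effective-length offset, beside 6454 of all genes. Leaving out 1 library, or both SNU475 libraries numbered 2, keeps a single library in some group. Members called are therefore not counted for those fits. The replicate block was fitted to the lactate comparisons and changed no other call of a member there. It was not fitted to the untreated ones.

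Some log2 changes turned sign, and the cause was not tested. With the effective-length offset the lactate effect was 0.11 for FOSB and -0.0094 for ATF3 in PLC/PRF/5, -0.061 for FOS in HLF, and 0.029 for ATF3 in untreated PLC/PRF/5 against SNU475. Without both SNU475 libraries numbered 2 it was -0.51 for FOSB and -0.31 for IER2 in SNU475 and -0.44 for FOSB on average, and between untreated lines 0.30 for ATF3 in PLC/PRF/5 against SNU475 and -0.0050 for FOS, 0.10 for JUN, -0.17 for JUNB, -0.33 for EGR1 and 0.051 for IER2 in HLF against SNU475. JUN in SNU475 was -0.012 with no filter and -0.010 with the line alone, and FOSB on average -0.069 with the replicate block. Untreated HLF against SNU475 gave -0.017 for JUNB and -0.016 for EGR1 with RLE size factors, -0.0022 and -0.0043 with no filter, and -0.017 for both by DESeq2. Leaving out 1 library, lactate effects ran from -0.64 to 0.16 for FOSB and -0.24 to 0.0039 for IER2 in PLC/PRF/5. In HLF they ran from -0.27 to 0.66 for FOS, -2.25 to 0.19 for FOSB, -0.18 to 0.31 for JUNB and -0.082 to 0.18 for ATF3. In SNU475 they ran from -0.71 to 1.88 for FOSB, -0.46 to 1.30 for FOSL1, -0.28 to 0.37 for JUN and -0.46 to 0.47 for IER2, and on average from -0.50 to 0.36 for FOSB and -0.29 to 0.015 for IER2. Between untreated lines they ran from -0.36 to 0.14 for JUNB in PLC/PRF/5 against HLF, and against SNU475 from -0.27 to 0.066 for JUNB and -0.71 to 0.30 for ATF3. In HLF against SNU475 they ran from -0.32 to 0.62 for FOS, -0.46 to 0.86 for FOSB, -0.51 to 0.13 for JUN, -0.25 to 0.25 for JUNB, -0.77 to 0.53 for EGR1 and -0.20 to 0.079 for IER2.

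With 2 libraries a group, the interval of a single line's effect is wide, and FOSB and EGR3 rest on few counts.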
